A study of Mus musculus with 6 samples.

Results

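Genes that bring iron into the cell, sense it, store it and release it were followed in megakaryocyte progenitors, the blood-forming cells committed to making platelets. The 10 genes, chosen by name, were Tfrc, Slc11a2, Steap3, Aco1, Ireb2, Fth1, Ftl1, Ncoa4, Slc40a1 and Hmox1. All probe sets annotated with exactly 1 of these symbols were used, which gave 24 probe sets for 9 genes, of 18193 genes named on the arrays. The probe sets that list Ftl1, the ferritin light chain, also list other genes, so Ftl1 was not analysed here. RNA came from 3 samples of fetal liver at E13.5 and 3 samples of bone marrow of adult mice aged 12 to 18 weeks, 1 array per sample. All samples were sorted progenitors of C57BL/6 mice that carry GATA1s, the short form of the transcription factor GATA1. The sort took cells that were c-kit+, CD41+ and CD150+ and that were lin- and Sca-1-, which sets aside cells with mature lineage markers. Tissue and age changed together and cannot be told apart, and every group carried GATA1s, so no comparison with full-length GATA1 was made. The labels call the samples biological replicates but do not say how many animals each held.

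Dividing blood progenitors take up iron bound to transferrin through the transferrin receptor. The complex is internalised, a reductase of the endosome turns ferric into ferrous iron, and a divalent metal transporter carries it into the cytosol. Iron not used at once is caged in ferritin, is freed again when the receptor NCOA4 delivers ferritin to the lysosome, and leaves the cell through ferroportin. Iron regulatory proteins bind hairpins in the messenger RNAs of several of these genes when iron is scarce, so much of this control acts on translation and RNA stability, of which arrays see only the RNA level. Macrophages that clear old red cells are known for high ferroportin and heme oxygenase, and red cell precursors for high transferrin receptor.

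Values are MAS5 signals, linear hybridisation intensities on an arbitrary scale. A gene was tested with limma on its brightest probe set, with p-values adjusted over 11645 genes and a threshold of 0.05, and each probe set was also tested on its own over 27022 probe sets. Differences are on the log2 scale as fetal liver minus bone marrow, ± the standard error of the fit. A signal below 10.6, the 95th percentile of 27 bacterial control probe sets, is called below the control level.

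All 18 tested megakaryocyte and platelet markers had signals above the control level on all 6 arrays. Of these 7 were higher in fetal liver and 0 lower (median difference 0.38), and the platelet chemokine gene Pf4 averaged 7680.5 ± 1633 in fetal liver and 8427 ± 310.5 in bone marrow (SD, n = 3 each). Among all genes tested 17.8% were higher and 18.3% lower. Markers of other blood cells lay lower in fetal liver. This held for all 14 tested granulocyte and monocyte markers (median -5.47), 5 of 6 mast cell and basophil markers (-3.81), 5 of 7 lymphoid markers (-3.86) and 7 of 14 erythroid markers (-0.77), with 1 erythroid marker higher. Genes were tested if their mean log2 signal over all 6 arrays passed a filter, at a signal of 22.9. In fetal liver 3 of the 6 mast cell, 1 of the 7 lymphoid and 1 of the 14 granulocyte markers had a geometric mean below the control level. Bone marrow alone brought these into the test, and with them part of the counts and medians. Across the alternative fits lower calls fell to 2 for mast cell and 1 for lymphoid markers, and their medians reached -0.84 and -1.08. The granulocyte gene S100a9 averaged 448 ± 285 in fetal liver and 12555 ± 1579 in bone marrow (SD, n = 3 each), above the control level on all 6 arrays. Samples of both tissues thus carried some markers of other cells beside those of the label, with S100a9 far higher in bone marrow. Among the bone marrow arrays replicate 1 stood apart. Summed erythroid signal was 18651 to 20735 on the fetal liver arrays, and 23505, 36976 and 37190 on bone marrow arrays 1, 2 and 3. Summed granulocyte and monocyte signal was 7322 to 9190 on the fetal liver arrays, and 64399, 81932 and 83484 on the same bone marrow arrays. Of 13 proliferation genes 9 were higher and 0 lower (median 0.35), of 6 endothelial markers 3 were higher and 0 lower, and of 5 hepatoblast markers 2 were higher and 2 lower. The count of higher hepatoblast markers was 1 without fetal liver replicate 1 or 2 or bone marrow replicate 2, and 0 to 3 across the other alternative fits. Dlk1, among the higher ones, had a bone marrow geometric mean of 13.3 and passed the filter through fetal liver alone. In bulk RNA, fewer cells of a type and less RNA per cell cannot be told apart, and the part of these markers in the results on iron genes was not tested.

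Of the 9 iron genes, Slc40a1 and Hmox1 were lower in fetal liver, Steap3 and Ireb2 were higher, and Tfrc, Slc11a2, Aco1, Fth1 and Ncoa4 did not pass the test. These 4 calls of 9 stand beside calls in 36.1% of all genes tested, 17.8% higher and 18.3% lower, so the number of calls is near the background. With median centring 3649 of all genes were higher and 1686 lower, against 2074 and 2134 without it. The median difference was 0.098 for the 9 genes and 0.041 for all genes. Arrays of the tissues did not overlap for 5 of the 9 genes, against 50.5% of all genes tested. Slc40a1 and Hmox1 differed by -2.01 and -2.18, and no other iron gene reached 1 in size. Tested one by one, 4 of the 19 iron probe sets that passed the signal filter were called, against 26.8% of all probe sets. A further 2 probe sets lay under the filter, and the remaining 3 are Tfrc hybridisation controls left out of the fits.

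**Figure D1:**
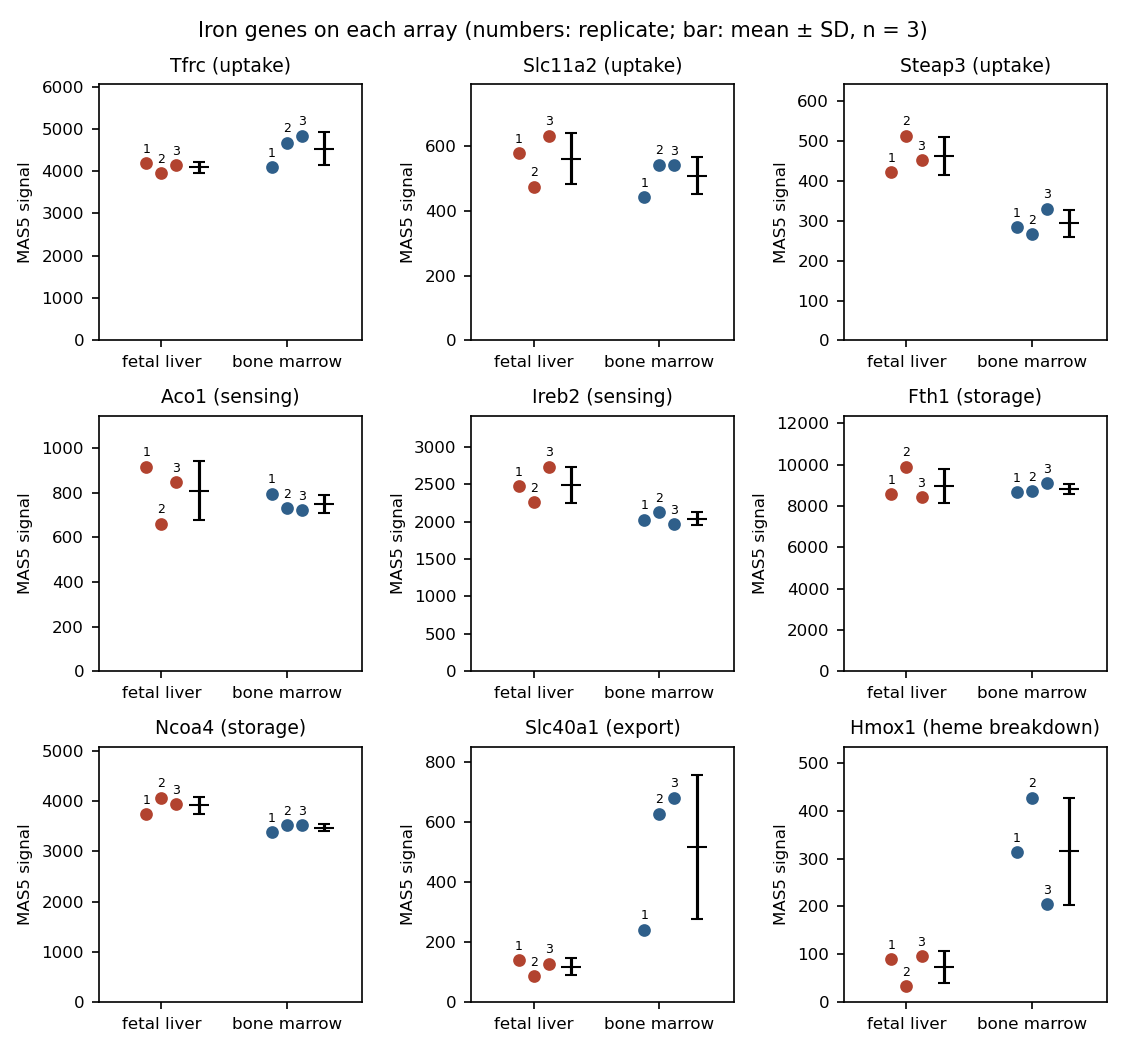
MAS5 signal (linear axis from 0) of the brightest probe set of the 9 iron genes on each fetal liver and bone marrow array, with replicate numbers at the points and bars for mean ± SD (n = 3). Slc40a1 and Hmox1 are lower on all fetal liver arrays, with a wide spread in bone marrow, Steap3 is higher on all of them, and Tfrc and Fth1 overlap between the tissues.

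Steap3, the endosomal reductase that makes ferrous iron, was the uptake gene that was higher in fetal liver. It had signals of 422, 513 and 452 in fetal liver, against 283, 266 and 331 in bone marrow. Every fetal liver array lay above every bone marrow array. The means were 462 ± 46.7 in fetal liver and 293 ± 33.2 in bone marrow (SD, n = 3 each), a log2 difference of 0.66 ± 0.15, or 1.58-fold (95% interval 1.24 to 2.0), with a limma adjusted p of 0.00901. The other Steap3 probe sets were dimmer and gave differences of 0.75 ± 0.21 (limma adjusted p = 0.0272 over all probe sets) and 0.66 ± 0.24 (adjusted p = 0.0673), and the tissues did not overlap on either. The call of the first of these was lost without fetal liver replicate 2 or 3, or bone marrow replicate 2 or 3 (adjusted p 0.0520 to 0.0843). The gene's own call held under every alternative tried, with differences of 0.56 to 0.83.

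Tfrc, the transferrin receptor, did not pass the test. Its brightest probe set had signals of 4185, 3950.0 and 4144 in fetal liver, against 4091, 4675 and 4838 in bone marrow, and the tissues overlapped. The difference was -0.14 ± 0.083 (limma adjusted p = 0.208), with a 95% interval of -0.33 to 0.043, which does not hold a difference as large as that of Steap3. The dimmer Tfrc probe sets averaged 744 ± 79.8 in fetal liver and 748 ± 95.6 in bone marrow, and 336 ± 52.6 in fetal liver and 323 ± 114 in bone marrow (SD, n = 3 each). Their differences were -0.0066 ± 0.14 and 0.099 ± 0.24. With array weights Tfrc was called lower (-0.19, limma adjusted p = 0.0361), and with median centring its difference was 0.015.

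Control probe sets at the 3′ end, the middle and the 5′ end of the Tfrc transcript check RNA and labelling. The 3′ set averaged 471 ± 50.0 in fetal liver and 470.4 ± 48.6 in bone marrow, the middle set 296 ± 89.5 in fetal liver and 302 ± 113 in bone marrow and the 5′ set 82.6 ± 22.3 in fetal liver and 102 ± 35.3 in bone marrow (SD, n = 3 each). All of these ranges overlapped. The log2 ratio of the 3′ to the 5′ set was 3.05, 1.97 and 2.61 on the fetal liver arrays, against 2.61, 2.32 and 1.84 on the bone marrow arrays. The same ratio averaged 0.42 ± 0.038 in fetal liver and 0.54 ± 0.11 in bone marrow for the controls of Gapdh, a glycolytic enzyme, and 0.40 ± 0.012 and 0.43 ± 0.067 for those of the actin gene Actb (SD, n = 3 each).

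Slc11a2, the divalent metal transporter of the endosome, did not pass the test either. Its brightest probe set had signals of 579, 476 and 633 in fetal liver, against 443, 544 and 542 in bone marrow, with overlap. The difference was 0.14 ± 0.15 (limma adjusted p = 0.514, 95% interval -0.21 to 0.49). Of its other probe sets 2 passed the filter, with differences of 0.27 ± 0.17 and 0.22 ± 0.21. The one under the filter was at 0.83 ± 0.47, with 27.8, 40.8 and 20.8 in fetal liver, against 18.5, 17.2 and 13.1 in bone marrow. All 4 differences were above 0, every interval included 0, and on 2 of the 4 the tissues did not overlap.

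**Figure D2:**
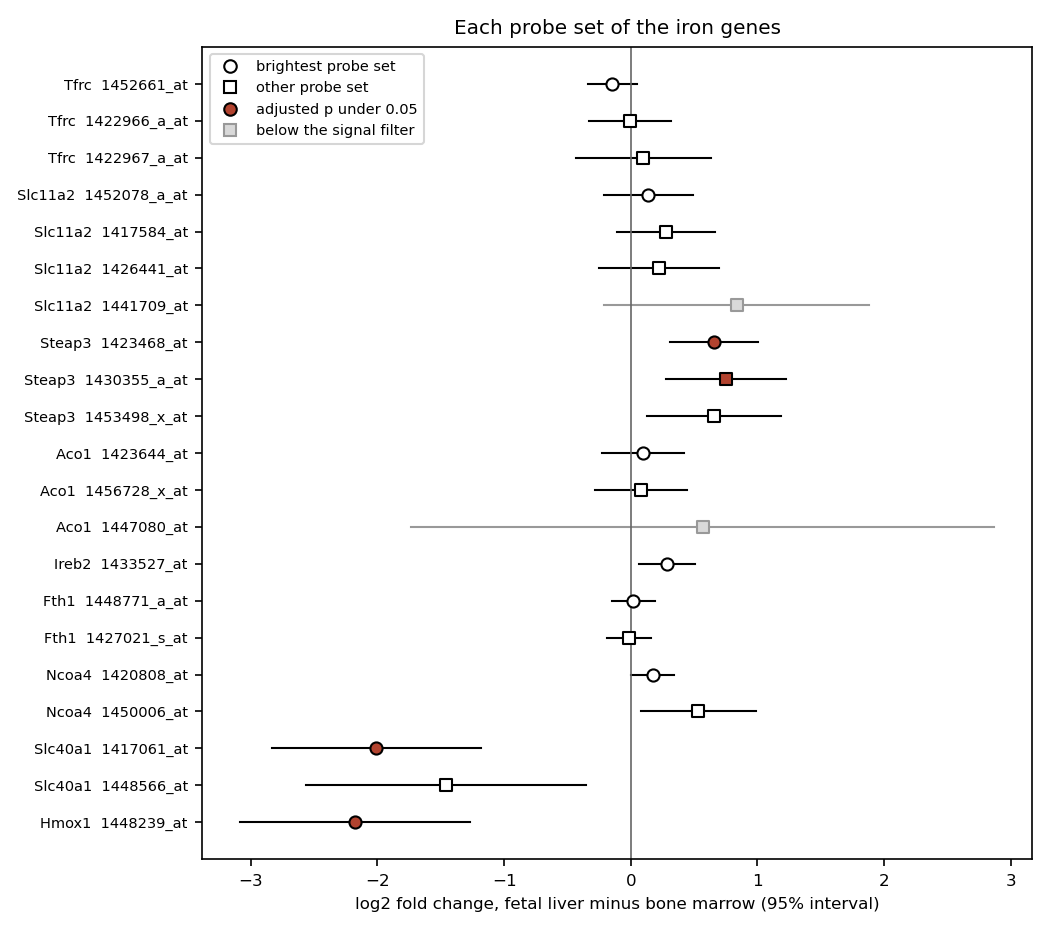
Log2 difference, fetal liver minus bone marrow, with 95% intervals for the 21 iron probe sets that are not controls, each tested on its own. Circles mark a gene's brightest probe set, red an adjusted p under 0.05 over all probe sets and grey a probe set under the signal filter. Every Steap3 probe set lies right of 0, every Slc40a1 and Hmox1 probe set lies left of it, and Ireb2, called among genes, is not called here.

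Of the sensors, Ireb2, iron regulatory protein 2, was higher in fetal liver by a small amount. It had signals of 2473, 2257 and 2731 in fetal liver, against 2025, 2128 and 1961 in bone marrow, without overlap. The difference was 0.28 ± 0.096, or 1.22-fold (95% interval 1.05 to 1.41), with a limma adjusted p of 0.0446. Over all probe sets the adjusted p was 0.0610. The call was lost on leaving out any 1 array other than fetal liver replicate 2. The limma adjusted p was 0.0645 without fetal liver replicate 1, 0.166 without fetal liver replicate 3, and 0.100, 0.0713 and 0.157 without bone marrow replicates 1, 2 and 3.

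Aco1, iron regulatory protein 1, which acts as a cytosolic aconitase when it holds an iron-sulfur cluster, did not pass the test. It had signals of 917, 662 and 847 in fetal liver, against 796, 731 and 721 in bone marrow (difference 0.098 ± 0.14, limma adjusted p = 0.624, 95% interval -0.22 to 0.42). Fetal liver replicate 2 was the lowest of all 6 arrays and the other fetal liver arrays were the highest. A further Aco1 probe set gave 0.082 ± 0.16. The dimmest one, under the filter, averaged 9.44 ± 2.85 in fetal liver and 10.9 ± 9.79 in bone marrow (SD, n = 3 each), near the control level.

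The DNA just before the starts of the higher genes is shown for reference. RefSeq promoter entries (build GRCm38.p6) matched 7 of the 10 genes, Tfrc, Steap3, Aco1, Ireb2, Fth1, Ftl1 and Ncoa4, with 14 start sites, and some windows of a gene overlap. In the 250 bases before each start, both strands were searched for AGATAA, bound by GATA factors, TGACNNNGC, the core bound by NRF2 and BACH1 with small MAF partners, GGGCGG, bound by SP1, and TATAAA, a core promoter element. AGATAA was found before 1 of the 14 starts, of Steap3, and is in 9.99% of 32851 such windows. GGGCGG was found before 8 starts, at least 1 for each of the 7 genes, and is in 32.7% of all windows. TGACNNNGC was found before 1 start, of Ncoa4, against 10.2% of all windows, and TATAAA before 2, of Fth1 and Ncoa4, against 12.4%. No other overlap than that of GGGCGG with itself was seen in the windows printed. Shown are the Steap3 start with AGATAA, which lies on the reverse strand as TTATCT, the Steap3 start with most GGGCGG, and the Ireb2 start, with motif letters in capitals.
Steap3 start 1, chr1:120271081-120271330, minus strand: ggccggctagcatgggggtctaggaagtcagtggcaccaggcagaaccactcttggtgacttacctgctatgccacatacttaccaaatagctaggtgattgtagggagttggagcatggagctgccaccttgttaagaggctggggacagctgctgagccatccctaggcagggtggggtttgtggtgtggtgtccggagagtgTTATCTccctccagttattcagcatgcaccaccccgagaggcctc
Steap3 start 3, chr1:120265287-120265536, minus strand: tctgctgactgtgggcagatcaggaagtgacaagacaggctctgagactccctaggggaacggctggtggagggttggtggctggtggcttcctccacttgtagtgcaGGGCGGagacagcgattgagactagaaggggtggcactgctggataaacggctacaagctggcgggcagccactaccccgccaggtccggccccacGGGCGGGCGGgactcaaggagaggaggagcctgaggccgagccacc
Ireb2 start 1, chr9:54863505-54863754, plus strand: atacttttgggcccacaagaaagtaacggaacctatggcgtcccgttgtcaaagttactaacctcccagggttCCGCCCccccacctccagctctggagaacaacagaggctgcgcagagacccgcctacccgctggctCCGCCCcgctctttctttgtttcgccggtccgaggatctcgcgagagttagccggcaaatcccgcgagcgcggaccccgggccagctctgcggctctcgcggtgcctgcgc
The capitals at Steap3 start 3 hold 3 copies of GGGCGG, of which 2 overlap, and those of Ireb2 hold 2 copies, both on the reverse strand. A match is a run of letters and shows no binding.

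Fth1, the ferritin heavy chain, which oxidises iron as it enters the shell, did not pass the test. Its signals were 8580.1, 9901 and 8436 in fetal liver, against 8665, 8710.1 and 9109.8 in bone marrow. The difference was 0.020 ± 0.075 (limma adjusted p = 0.858), with a 95% interval of -0.15 to 0.19. Its sign turned with quantile normalization (-0.064) and without fetal liver replicate 2 (-0.053). A second Fth1 probe set gave -0.015 ± 0.076.

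Ncoa4, the receptor that takes ferritin to the lysosome, lay above bone marrow on all fetal liver arrays but did not pass the test. It had signals of 3739, 4065 and 3936 in fetal liver, against 3383, 3514 and 3521 in bone marrow (difference 0.17 ± 0.073, limma adjusted p = 0.0956, 95% interval 0.0074 to 0.34). Its second probe set had a difference of 0.53 ± 0.20 (limma adjusted p = 0.0786 over all probe sets), and there the tissues overlapped. It was called without fetal liver replicate 1 (0.66, adjusted p = 0.0421) or bone marrow replicate 1 (0.70, adjusted p = 0.0339), and with median centring or array weights (adjusted p = 0.0213 and 0.00466). It was not called without any 1 of the other arrays, with differences down to 0.33 (adjusted p = 0.263, without fetal liver replicate 3). Ncoa4 passed the test when its probe sets were averaged (0.35, limma adjusted p = 0.0418), with median centring (0.33, adjusted p = 0.0131) and with array weights (0.16, adjusted p = 0.0321).

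Slc40a1 encodes ferroportin, the iron exporter of vertebrate cells, and was lower in fetal liver. Signals were 141, 88.0 and 128 in fetal liver, against 242, 628 and 681 in bone marrow. No arrays overlapped, but bone marrow replicate 1 lay far below the other bone marrow arrays. The log2 difference was -2.01 ± 0.37 (limma adjusted p = 0.00308), a size of 4.02-fold (95% interval 2.24 to 7.22). The second Slc40a1 probe set had signals of 38.6, 73.1 and 33.8 in fetal liver, against 55.4, 211 and 171 in bone marrow. Bone marrow replicate 1 was again the lowest of its tissue, and fetal liver replicate 2 lay above it. That difference was -1.46 ± 0.49 and did not pass the test over all probe sets (limma adjusted p = 0.0534). Without bone marrow replicate 1 it was -2.05 (limma adjusted p = 0.00358), and without fetal liver replicate 2 it was -1.80 (adjusted p = 0.0457). Without any 1 of the other arrays it was -1.34 to -1.09 and was not called (adjusted p 0.101 to 0.180). It was called with the replicate block (adjusted p = 0.0204), and quantile normalization gave -1.13 (adjusted p = 0.140). In all, this probe set was called under 6 of the 15 alternatives that gave a value, with a lowest limma adjusted p of 0.00236.

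Hmox1, heme oxygenase 1, which opens the heme ring and frees its iron, was also lower in fetal liver. Its only probe set had signals of 89.7, 34.4 and 96.2 in fetal liver, against 313, 427 and 205 in bone marrow, without overlap. The log2 difference was -2.18 ± 0.41 (limma adjusted p = 0.00341), a size of 4.52-fold (95% interval 2.36 to 8.63). Among the bone marrow arrays replicate 3 was the lowest for Hmox1 and the highest for Slc40a1.

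Macrophage markers were also lower in fetal liver, as were many of the granulocyte, mast cell, lymphoid and erythroid markers given above. Of 9 tested macrophage markers 8 were lower in fetal liver and 0 higher (median -1.96), beside 18.3% lower and 17.8% higher among all genes. The summed signal of these 9 markers was 365 to 483 on the fetal liver arrays and 2318 to 2815 on the bone marrow arrays. Of the 17 macrophage markers on the array, tested or not, 8 had a fetal liver mean below the control level, and 2 had such a bone marrow mean. Vcam1, an adhesion molecule of iron-recycling macrophages, averaged 3.91 ± 3.41 in fetal liver and 444 ± 88.0 in bone marrow. It was at least 41.3-fold lower in fetal liver (limma adjusted p = 2.32e-05), where all 3 signals lay under the control level. Vcam1 passed the signal filter through bone marrow alone, and was named for its high signal there. The filter took the mean over all 6 arrays, so bone marrow could bring in other markers that were low in fetal liver. The count of lower macrophage markers fell to 2 with a higher filter and rose to 13 with no filter, so it depended on the filter. Csf1r, the receptor for macrophage colony-stimulating factor, averaged 83.1 ± 47.0 in fetal liver and 834 ± 77.3 in bone marrow, and the lysosomal protein gene Cd68 199.5 ± 26.4 in fetal liver and 589 ± 148 in bone marrow (SD, n = 3 each).

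Of macrophage genes below the signal filter, and so untested, the hemoglobin scavenger receptor Cd163 averaged 1.01 ± 0.539 in fetal liver and 283 ± 47.8 in bone marrow, and Spic, a transcription factor of iron-recycling macrophages, 6.04 ± 5.02 in fetal liver and 121 ± 2.83 in bone marrow (SD, n = 3 each). Both were picked after their values were seen. The other untested macrophage markers are not given, so Cd163 and Spic do not stand for them. Bone marrow replicate 1 was the highest of its tissue in summed macrophage signal and the lowest in Slc40a1 and in summed erythroid signal. Without it the differences were -2.49 for Slc40a1 (limma adjusted p = 1.07e-04) and -2.15 for Hmox1 (limma adjusted p = 0.0112). The part of macrophage or erythroid RNA in these differences was not tested.

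**Figure D3:**
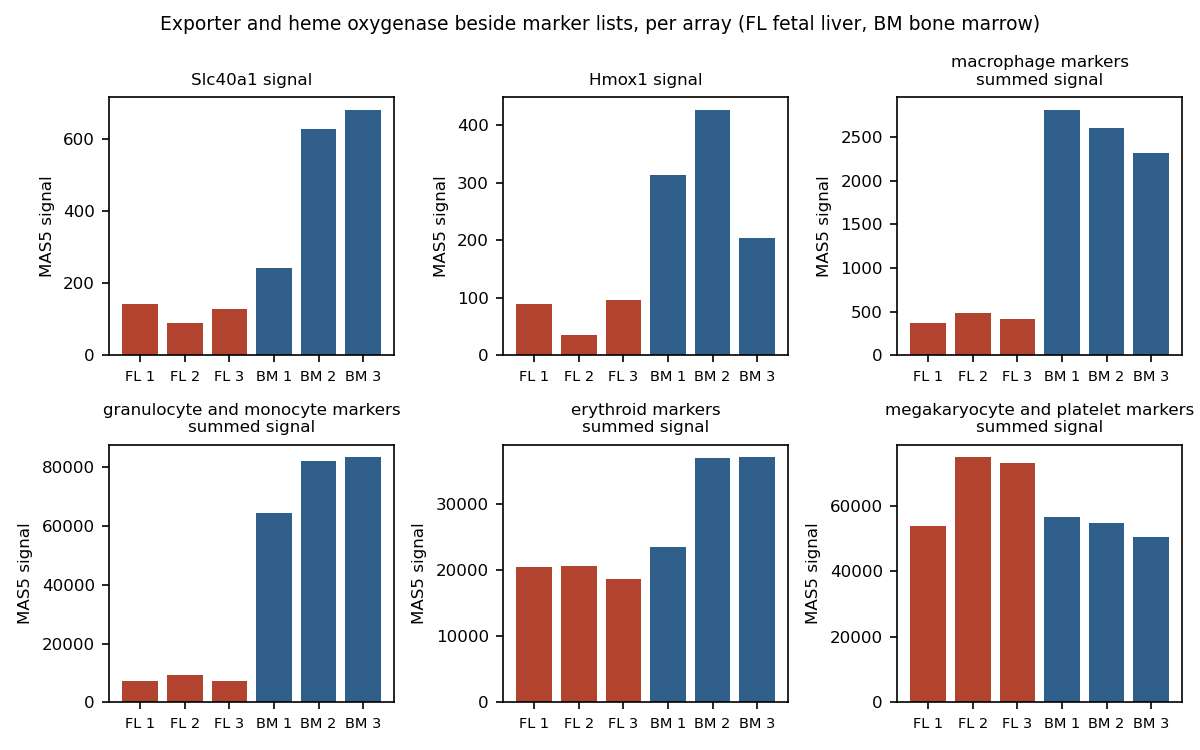
Signals per array (linear axes from 0) of Slc40a1 and Hmox1 and summed signals of the tested markers of 4 cell types, with fetal liver arrays (FL) left of bone marrow arrays (BM). Bone marrow array 1 is the lowest of its tissue for Slc40a1 and for the granulocyte and erythroid sums and the highest for the macrophage sum, and Hmox1 has another order.

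Other genes of iron handling were read from 7 lists. Their counts stand beside calls in 36.1% of all genes tested, 17.8% higher and 18.3% lower, and no list was tested as a set. Of 12 tested genes of iron uptake and reduction, 6 were lower in fetal liver and 1 higher (median -0.82), and 0 were higher without fetal liver replicate 1 or 3 or bone marrow replicate 1 or 2. Lcn2 (-8.13 ± 0.23) and Ltf (-7.65 ± 0.55), siderophore- and iron-binding proteins of neutrophil granules, are also among the granulocyte markers. The signal filter took the mean over all 6 arrays. In fetal liver the geometric means of Lcn2, Ltf, Hfe and Lrp1 were 21.0, 22.2, 21.6 and 9.61, under its cutoff of 22.9. Bone marrow alone brought these genes into the test, and with them part of the count and median. Hfe, a membrane partner of the transferrin receptor, averaged 21.9 ± 4.29 in fetal liver and 94.0 ± 14.6 in bone marrow (difference -2.11 ± 0.30, limma adjusted p = 6.90e-04). Lrp1, a scavenger receptor that takes up heme bound to hemopexin, had signals of 9.51, 7.16 and 13.0 in fetal liver, against 98.5, 77.7 and 62.0 in bone marrow, at least 6.85-fold lower (limma adjusted p = 3.57e-04), and 2 of its 3 fetal liver signals lay under the control level. Tfr2, a second transferrin receptor that senses iron, is named after its values were seen, and averaged 349 ± 131 in fetal liver and 1171 ± 404 in bone marrow (difference -1.75 ± 0.31, limma adjusted p = 0.00239).

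Of 10 genes of iron sensing and iron chaperones, 3 were higher and 0 lower (median 0.17), and 1 was higher without replicate 2 or 3 of either tissue. With median centring 6 were higher, with no variance trend or the replicate block 1, and 2 were lower with array weights and 1 without fetal liver replicate 1. Ciao1, of the cytosolic iron-sulfur assembly machinery, averaged 1089 ± 45.8 in fetal liver and 678 ± 96.1 in bone marrow (difference 0.69 ± 0.13, limma adjusted p = 0.00317). Nubp2, a scaffold of the same machinery, and Cul1, a scaffold of ubiquitin ligases such as that of the iron sensor FBXL5, had differences of 0.29 ± 0.094 and 0.23 ± 0.078. The mitochondrial iron and iron-sulfur cluster list had 1 of 17 genes higher and 2 lower (median 0.16), a smaller share than the 36.1% of all genes called. The count of higher genes was 7 with median centring, 5 with array weights and 2 with quantile normalization or averaged probe sets, and that of lower genes 1 with median centring. With median centring 45.8% of all genes were called, and the share of this list was then not smaller. Slc25a37, the mitoferrin of erythroid mitochondria, averaged 813 ± 168 in fetal liver and 1866 ± 581 in bone marrow (difference -1.17 ± 0.24, limma adjusted p = 0.00480), and its lowest bone marrow array was again replicate 1. The cluster assembly genes Isca1 (-0.35 ± 0.083) and Isca2 (0.37 ± 0.094) went in opposite directions.

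Of 4 tested genes of iron and heme export and systemic control, 2 were lower and 1 higher (median -0.89). Flvcr1, a heme exporter, averaged 566 ± 138 in fetal liver and 1033 ± 18.9 in bone marrow (difference -0.90 ± 0.18, limma adjusted p = 0.00396). Furin, a protease that cleaves the hepcidin precursor among others, was lower (-0.88 ± 0.098), and Abcg2, a transporter of porphyrins and drugs, was higher (0.29 ± 0.097, limma adjusted p = 0.0448). No gene of this list was called higher on leaving out any 1 array other than fetal liver replicate 2. Tmprss6, a protease that restrains hepcidin, had a difference of -1.16 ± 0.50 and was not called (limma adjusted p = 0.102).

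Of 5 genes of heme capture and breakdown, 2 were lower and 1 higher (median -0.068). Hp, haptoglobin, which binds free hemoglobin, averaged 66.3 ± 24.2 in fetal liver and 2288 ± 820.1 in bone marrow (difference -5.09 ± 0.32). The lysosomal heme transporter gene Slc48a1 was lower (-0.50 ± 0.096, limma adjusted p = 0.00345). Of the genes downstream of heme oxygenase, the biliverdin reductase gene Blvra was higher (0.61 ± 0.16, limma adjusted p = 0.0158) and Blvrb was not called (-0.068 ± 0.17). The call of Blvra was lost without fetal liver replicate 2 or 3. Hmox2, the constitutive heme oxygenase, was not called (0.24 ± 0.16, limma adjusted p = 0.282).

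NRF2 and BACH1 are transcription factors known to activate and to repress Hmox1, Slc40a1 and the ferritin genes. Of 17 tested factors and targets 7 were lower in fetal liver and 1 higher (median -0.28), beside 18.3% lower and 17.8% higher among all genes tested. Gstm1, a glutathione transferase, averaged 612 ± 137 in fetal liver and 1586 ± 274 in bone marrow (difference -1.38 ± 0.19, limma adjusted p = 4.98e-04). Bach2, a relative of BACH1 best known in lymphocytes, was lower (difference -2.60 ± 0.40), beside the lower lymphoid markers, whose part was not tested. Gclm, a subunit of the enzyme that starts glutathione synthesis (-0.54 ± 0.12), and Maff, a small MAF protein (-1.91 ± 0.48), were lower too. The lower genes of this list were 4 without bone marrow replicate 3, and the higher ones 2 without fetal liver replicate 1 and 0 without fetal liver replicate 2 or 3 or bone marrow replicate 1 or 2.

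Of 16 autophagy genes 7 were lower and 0 higher (median -0.19), beside 18.3% lower and 17.8% higher among all genes tested. Tax1bp1, an autophagy receptor that works with NCOA4, averaged 2181 ± 126 in fetal liver and 3208 ± 202 in bone marrow (difference -0.56 ± 0.087, limma adjusted p = 0.00116). Atg12, of the autophagy conjugation machinery (-0.45 ± 0.10), and the kinase gene Ulk1 (-0.58 ± 0.16) were lower. Tfeb, a regulator of lysosome genes, averaged 35.7 ± 18.4 in fetal liver and 114 ± 23.0 in bone marrow (difference -1.82 ± 0.43). The count of lower autophagy genes was 3 with median centring, without fetal liver replicate 3 or without bone marrow replicate 2, and 4 without bone marrow replicate 3.

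**Figure D4:**
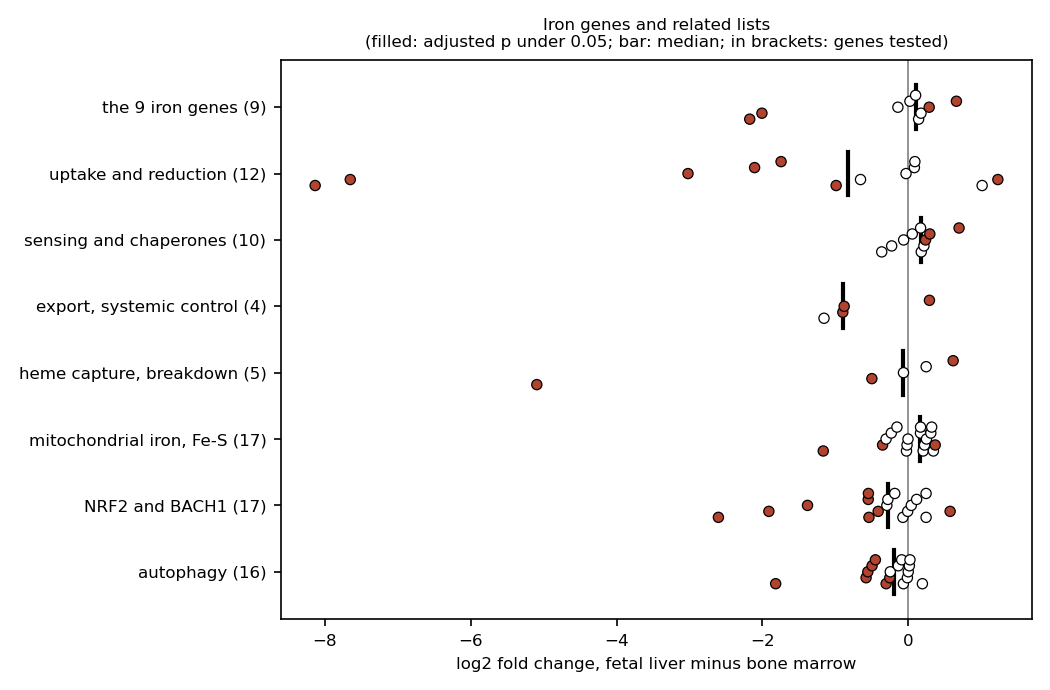
Log2 difference, fetal liver minus bone marrow, of each tested gene among the 9 iron genes and 7 related lists, with filled points for an adjusted p under 0.05, a bar for the median and the number of genes tested in brackets. Most of the 9 iron genes lie near 0, Hmox1 and Slc40a1 lie at -2.18 and -2.01, and the 3 leftmost points are Lcn2, Ltf and Hp.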

How the data were processed

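Sorted progenitor RNA was hybridised to 6 arrays, 3 of fetal liver and 3 of bone marrow. The values deposited by the authors are linear intensity signals; the submitters' processing notes name MAS5, and for it a version was not given in the sources used here. After trimming 2% at each end, the mean signal was 500 on every array. Of 45101 probe sets 64 were controls, and 34945 of the rest carried 1 symbol in the platform annotation. The number of arrays limits the precision.

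Signals were log2-transformed. Probe sets with a mean above the 40th percentile (a signal of 22.9) were kept, and the brightest stood for a gene. limma 3.58.1 (R 4.3.3) fitted tissue alone, with an intensity-trended prior and Benjamini-Hochberg adjustment at 0.05. The script was tested on simulated data. With 3 against 3, an exact permutation test cannot go below 0.1, so none was used. Lists were matched by symbol (230 of 258 entries found).

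Alternatives were other filters, normalizations, an offset, a floor, other variance priors, array weights, a replicate block, averaged probe sets and leaving out each array. The iron genes, lists and tests were chosen with earlier results of these data known. Named were all iron genes and, of each related list, up to 4 called genes with the smallest adjusted p. Every gene of related lists with under 6 tested members was named too. From marker lists, named genes are among the 3 with the highest mean signal in the tissue where the list was higher by its median. That choice used the direction of the difference, so these genes are examples and not further support. Other genes named are marked as such.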

Additional observations from a re-analysis of the deposited data

How the results depend on the processing

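Steap3, Slc40a1 and Hmox1 kept their direction and call under every alternative that gave a value, with ranges of 0.56 to 0.83, -2.49 to -1.73 and -2.45 to -1.60 in that order. Hmox1 had no value with the filter at the 60th percentile, since its mean signal lies under it, so 1 iron gene was then lower. Ireb2 lost its call with no filter (0.28, limma adjusted p = 0.0593), quantile normalization (0.25, 0.0590), no variance trend (0.28, 0.0882) and the replicate block (0.28, 0.0748), leaving 1 iron gene higher. Leaving out arrays gave 0.21 to 0.35 for Ireb2 and 1 to 2 iron genes higher. Tfrc was -0.19 with array weights and 0.015 with median centring. Ncoa4 was 0.33 with median centring, 0.16 with array weights and 0.35 with averaged probe sets. Fth1 was -0.064 with quantile normalization, -0.054 with array weights (-0.047 in the probe set fit) and -0.053 to 0.063 leaving out arrays. Its other probe set was 0.14 with median centring and -0.064 to 0.040 leaving out arrays. Of the dimmer Tfrc probe sets, one was 0.063 with quantile normalization, 0.15 with median centring and -0.11 to 0.086 leaving out arrays, and the other -0.21 with array weights and -0.053 to 0.37 leaving out arrays. The dimmer Aco1 probe set ran from -0.051 to 0.25 leaving out arrays. The cause of these shifts was not tested.

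Over all genes 2074 were called higher and 2134 lower. Median centring gave 3649 and 1686, so 68.4% of calls were higher against 49.3%, and it set the median difference at 0.20 against 0.041; differences of about that size have no settled size. Array weights gave 3169 higher, the filter at the 60th percentile 1402 lower, and leaving out arrays 1270 (bone marrow replicate 3) to 2193 higher, with 1336 without fetal liver replicate 3. The replicate block gave 3847 calls in all. The labels do not say that samples of the tissues with the same number were paired. Deviations of such pairs correlated at -0.081, 0.071 and -0.11, and those of pairs with unlike numbers at -0.052 to 0.14. A shared batch was not tested. Lower calls among macrophage markers ran from 2 with the filter at the 60th percentile to 13 with no filter. Iron genes tested had no array below the control level.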
